A study of Mus musculus with 4 samples.

Results

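Insulin signalling and glucose uptake in muscle are described here through 10 genes measured in the gastrocnemius, a muscle of the calf. They are the insulin receptor gene Insr, the receptor substrate genes Irs1 and Irs2, the genes Pik3r1 and Akt2 of the kinases that follow, the glucose transporter genes Slc2a4 and Slc2a1, the hexokinase genes Hk1 and Hk2, and Txnip. They were chosen by name, with earlier results of these data known. Every probe set annotated to exactly 1 of these symbols was taken, 19 in all. The probe set of highest mean log2 signal represents its gene. All 10 genes are on the array, and 8 of them were bright enough to be among the 6841 genes tested. The animals compared were MCK-PPARb transgenic mice, which overexpress PPARbeta (gene Ppard) in muscle, and their littermate controls were non-transgenic (NTG) wild-type mice, both aged 6 weeks. MCK is the usual abbreviation for the muscle creatine kinase promoter, which is active in muscle fibres and not in the other cells of a muscle. The sources used here name no strain, sex or transgenic line. There were 2 Affymetrix arrays in each group, called biological replicates in the labels. The design text speaks of 2 mice of each kind and 2 replicates of each, which leaves unclear whether each array is a separate mouse, and p-values then measure only how far these arrays spread.

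When insulin binds its receptor, the receptor phosphorylates the docking proteins IRS1 and IRS2, which recruit phosphoinositide 3-kinase. The lipid it makes activates the kinase AKT2, and AKT2 in turn releases vesicles that carry the glucose transporter GLUT4 (Slc2a4) to the surface of the fibre. GLUT1 (Slc2a1) brings in glucose without insulin, hexokinases trap it as glucose 6-phosphate, and TXNIP, an arrestin-like protein whose gene is switched on by glucose, holds uptake back.

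Upstream sequences are shown for Txnip, Irs1 and Irs2, because Txnip and Irs1 had the smallest p-values among the representative probe sets of the 10 genes and Irs2 is the closest relative of Irs1. Each is the 250 bases before the RefSeq start site, written 5′ to 3′ on the strand of the gene, from GRCm38.p6. Such windows were found for 8 of the 10 genes. Txnip lies on the plus strand at chr3:96557707-96557956, Irs1 on the minus strand at chr1:82291440-82291689, and Irs2 on the minus strand at chr8:11008930-11009179. Capitals mark 4 motifs searched on both strands, which are the E-box CACGTG, the forkhead core GTAAACA, the insulin response sequence TGTTTTG, and a pair of CACGAG boxes, marked together with the 5 bases that separate them.
Txnip: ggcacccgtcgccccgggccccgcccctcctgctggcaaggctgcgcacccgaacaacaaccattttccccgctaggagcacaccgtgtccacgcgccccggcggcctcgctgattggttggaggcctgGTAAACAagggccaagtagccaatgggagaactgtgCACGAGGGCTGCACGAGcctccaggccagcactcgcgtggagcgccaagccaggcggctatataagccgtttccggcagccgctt
Irs1: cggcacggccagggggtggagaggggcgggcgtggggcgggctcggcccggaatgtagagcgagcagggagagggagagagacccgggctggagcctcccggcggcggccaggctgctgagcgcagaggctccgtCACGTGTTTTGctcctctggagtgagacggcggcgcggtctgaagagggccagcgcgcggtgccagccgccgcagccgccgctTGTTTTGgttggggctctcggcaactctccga
Irs2: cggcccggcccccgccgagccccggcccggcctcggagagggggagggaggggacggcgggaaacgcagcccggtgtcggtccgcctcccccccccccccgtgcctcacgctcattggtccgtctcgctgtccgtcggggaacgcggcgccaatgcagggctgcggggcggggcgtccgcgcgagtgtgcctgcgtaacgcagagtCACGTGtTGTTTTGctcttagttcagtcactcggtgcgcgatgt
In Txnip the capitals at -85 to -69 from the start site are a pair of CACGAG boxes with 5 bases between them, the arrangement known as a carbohydrate response element, to which the glucose-sensing factor MondoA (gene Mlxip) binds with its partner MLX. Of 32851 upstream windows in the RefSeq table, 1 held exactly these letters (0.00304%), that of Txnip itself. The letters searched are those of the Txnip element, and other elements of this class have other boxes, so this share follows from the pattern and is not the frequency of such elements. Txnip also held GTAAACA, the core letters that forkhead (FOXO) factors read, at -121 to -115, as did 3.17% of windows. Irs1 and Irs2 each held an E-box, CACGTG, at -115 to -110 and at -44 to -39, found in 6.02% of windows. Each also held TGTTTTG, the letters of an insulin response sequence, which 5.56% of windows held. In Irs1 it stood at -111 to -105, where it shares 2 letters with the E-box, and again at -32 to -26, and in Irs2 at -37 to -31. No run of letters that the Irs1 and Irs2 windows shared was longer than 10 bases. A shared run of that length contains the E-box, and another, tgttttgctc, contains the insulin response sequence. The direct repeat that PPAR receptors prefer, searched as AGGTCA, any 1 base and AGGTCA, was in none of the 13 windows of the 8 genes and in 0.0335% of all windows. These matches describe letters and say nothing of binding in these muscles.

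The signal of a probe set is a brightness on a linear scale, with a trimmed mean of 1501 units on every array. The filter level, above which the mean log2 signal of a probe set had to lie for it to be tested, was 444 units. Ppard had signals of 126049 and 98797 in MCK-PPARb muscle, against 2169 and 2825 in NTG muscle, and rose 45.1-fold (log2 5.49 ± 0.22, SE, with 2 arrays in each group, limma adjusted p = 0.000187), which matches the labels. All 10 muscle fibre markers, of which Mylpf was the brightest, were bright on every array. The 10 brightest probe sets held 2.78% and 2.44% of the signal on the MCK-PPARb arrays, against 4.20% and 2.36% on NTG replicates 1 and 2, so NTG replicate 1 stood apart at the top of the scale. Summed fibre markers ran from 1195100 to 1379470 units in MCK-PPARb muscle and from 1169313 to 2062350 in NTG muscle, and none of the 10 passed the test. Genes of fat cells (6 measured, Fabp4 the brightest) summed to 13275 and 13688 in MCK-PPARb muscle, within the 10411 to 14741 of NTG muscle, but Fabp4, which overlapped, makes up most of that sum. Of the other fat cell markers above the filter, Adipoq (log2 1.03 ± 0.26, adjusted p = 0.194), Retn (1.02 ± 0.27, adjusted p = 0.219) and Lipe (0.76 ± 0.40, adjusted p = 0.562) had both MCK-PPARb arrays above both NTG arrays. Of all 6, 3 read higher and 3 lower, the lower ones being Fabp4 and, below the filter, Lep (-0.80) and Cidec (-0.47). The part of fat cells in the results that follow was not tested. Genes of Schwann cells and nerve (4 measured, Pmp22 the brightest) summed to 29864 and 33804 in MCK-PPARb muscle, above the 17580 to 19421 of NTG muscle. Pmp22 and Mbp make up most of that sum. Of the 4 genes, 3 had both MCK-PPARb arrays above both NTG arrays and 1 read lower, S100b (-0.94, below the filter). The 3 were Mbp (log2 0.96 ± 0.18, limma adjusted p = 0.0928), Pmp22 (0.67 ± 0.21, adjusted p = 0.285) and Ncmap (0.75 ± 0.31, adjusted p = 0.462). Genes of blood vessel endothelium, all 8 measured and Cdh5 the brightest, summed to 12127 and 12339 units, just below the 12373 to 14313 units of NTG muscle. Of these 8, 5 read lower and 3 higher. No marker of these lists was at 0 and none passed the test. Fewer cells of a type and less RNA per cell cannot be told apart in whole muscle.

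None of the 10 genes passed the test at an adjusted p under 0.05, in a comparison in which 0.731% of all genes did (50 of 6841, 0.409% higher and 0.322% lower). Of all probe sets kept, 0.601% passed (68 of 11313). Of the 10, 8 lay above the filter and were tested, and Insr and Irs2 lay below it and are given by value. On the representative probe sets the lowest adjusted p was 0.220, for Txnip, and the highest 0.833, for Slc2a4 (limma, adjusted over all 11313 kept probe sets). A dimmer Pik3r1 probe set had 0.203. At an unadjusted p under 0.05 there were 2 of 8 on these probe sets, Txnip and Irs1, against 10.9% of all genes. The 2 dimmer Pik3r1 probe sets, which do not represent the gene, had an unadjusted limma p of 0.0336 and 0.00569. The groups did not overlap for 6 of the 8, against 42.9% of all genes. The median log2 difference of the 8, MCK-PPARb minus NTG, was 0.21, beside 0.011 for all genes tested, and the range was -1.26 to 1.14. The value of 1.14 is that of Slc2a1, which is also among the 6. Its geometric mean signal was 752 units in MCK-PPARb muscle and 341 units in NTG muscle. Only the MCK-PPARb mean thus lay above the filter level of 444 units. The size of the difference without its sign had a median of 0.38 for the 8 and 0.24 for all genes.

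**Figure D1:**
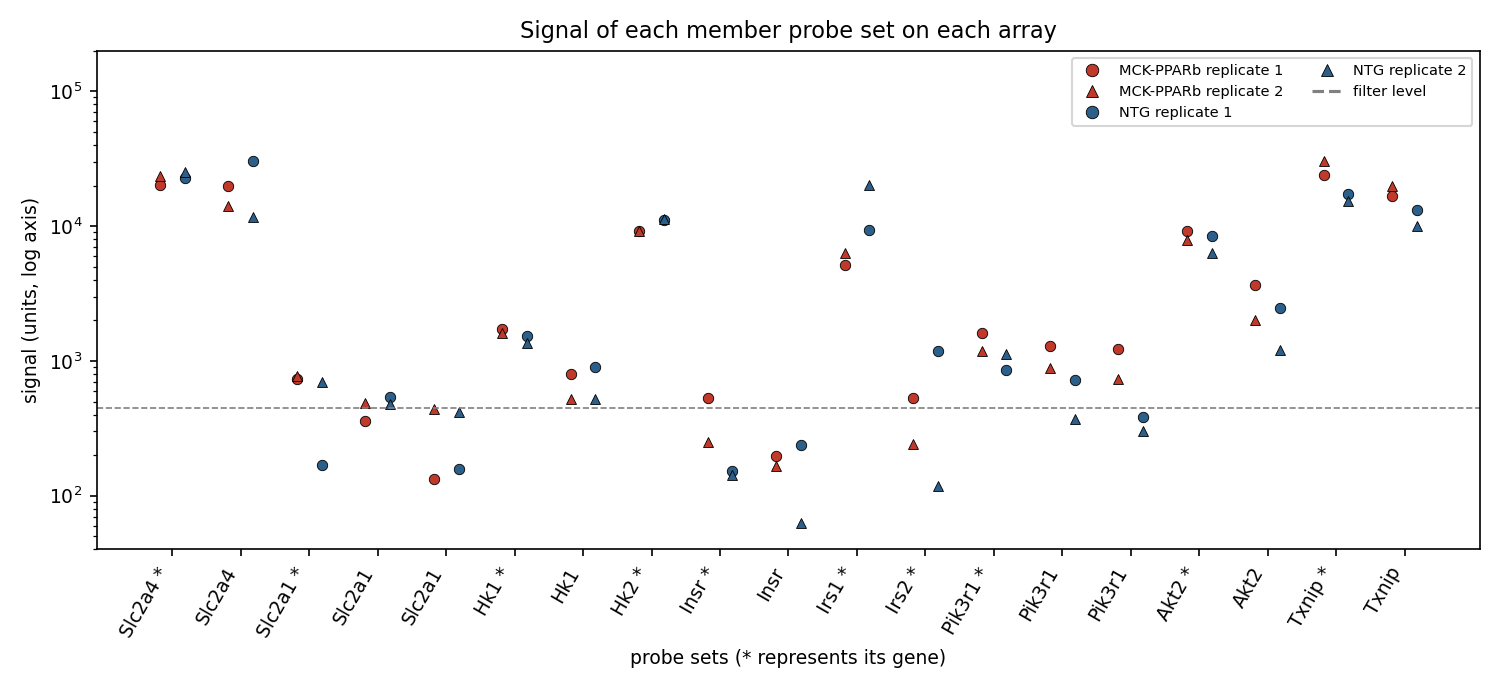
Signal in units, on a log axis, of the 19 probe sets of the 10 genes on each of the 4 arrays, with MCK-PPARb points left of NTG points, circles for replicate 1, triangles for replicate 2, and a dashed line at the filter level of 444 units. Both Txnip probe sets stand higher in MCK-PPARb muscle and the Irs1 probe set lower, while Insr, Irs2 and part of Slc2a1 and Pik3r1 lie around or under the dashed line.

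Insr, which encodes the receptor itself, was dim. Its representative probe set had signals of 531 and 251 in MCK-PPARb muscle, against 152 and 144 in NTG muscle. Both transgenic arrays were above both NTG arrays, by 1.31 on the log2 scale, but only MCK-PPARb replicate 1 exceeded 444 units, and the difference was 0.77 without it and 1.85 without MCK-PPARb replicate 2. The second Insr probe set read 198 and 167.5 in MCK-PPARb muscle, against 240 and 63.1 in NTG muscle, and overlapped, with a difference of -0.40 without NTG replicate 2 and 1.53 without NTG replicate 1. Without a filter, the difference of 1.31 ± 0.69 had an adjusted p of 0.749 (SE, n = 2 per group, limma).

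Irs1, which encodes the main receptor substrate of muscle, had the largest difference of the 8 tested genes, and it was negative. Its single probe set read 5168 and 6296 in MCK-PPARb muscle, against 9321 and 20112 in NTG muscle. Both transgenic arrays were below both NTG arrays, and the NTG arrays differed from each other more than the transgenic ones did. The log2 difference was -1.26 ± 0.34 (SE, n = 2 per group, 95% interval -2.07 to -0.46), a ratio of 0.417, with an adjusted p of 0.230 and an unadjusted p of 0.00731 in limma. Of all genes tested, 1.64% had a larger difference in either direction. Without NTG replicate 1 Irs1 differed by -1.82 and passed (adjusted p = 0.00529, limma), and without NTG replicate 2, which held the highest signal, by -0.71 and did not (adjusted p = 0.227). Leaving out NTG replicate 2 thus moved the value by over 1.5 times.

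Irs2, the other receptor substrate, gave no usable comparison. It read 530.1 and 241 in MCK-PPARb muscle, against 1188 and 118 in NTG muscle. The NTG arrays lay on either side of both transgenic arrays, and the log2 difference was -0.066. It was -1.73 without NTG replicate 2 and 1.60 without NTG replicate 1. The difference of Irs1 minus that of Irs2 was -1.20, the NTG arrays alone spreading from 2.97 to 7.42 in this log2 ratio, and an exact two-sided permutation test over the 4 arrays gave p = 1, adjusted 1 over 3 such pairs. The smallest p that 2 arrays against 2 can give is 0.333.

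Pik3r1 encodes the regulatory subunit p85alpha, which docks phosphoinositide 3-kinase to the receptor substrates. Its 3 probe sets all read higher in both MCK-PPARb arrays than in either NTG array. The brightest read 1623 and 1189.7 in MCK-PPARb muscle, against 857 and 1134 in NTG muscle, and differed by 0.50 ± 0.29 on the log2 scale (SE, n = 2 per group, 95% interval -0.19 to 1.18, adjusted p = 0.611, limma). The second read 1285 and 893 in MCK-PPARb muscle, against 716 and 373 in NTG muscle (log2 1.05 ± 0.40, adjusted p = 0.408). The remaining one read 1232 and 736 in MCK-PPARb muscle, against 384 and 300.2 in NTG muscle, all below the filter level in NTG muscle, with a log2 difference of 1.49 ± 0.39 and an adjusted p of 0.203. These sizes are unequal, and the representative probe set had the smallest. The 3 were designed on the same transcript record, so they share a target and are not independent measurements. The mean of the 3, in place of the brightest, differed by 1.01, which did not pass (adjusted p = 0.238, limma). Without MCK-PPARb replicate 1 the brightest probe set stood at 0.27, without NTG replicate 1 at 0.29 and without NTG replicate 2 at 0.70. The second probe set stood between 0.58 without NTG replicate 2 and 1.52 without NTG replicate 1.

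Akt2 encodes the isoform of the kinase AKT through which insulin acts on glucose uptake. Its representative probe set read 9193 and 7875 in MCK-PPARb muscle, against 8389 and 6307 in NTG muscle. The groups overlapped, and Akt2 differed by 0.23 ± 0.21 on the log2 scale (SE, n = 2 per group, 95% interval -0.27 to 0.72, adjusted p = 0.779, limma). It was 0.02 without NTG replicate 2, 0.11 without MCK-PPARb replicate 1, 0.34 without MCK-PPARb replicate 2 and 0.43 without NTG replicate 1, so its size rests on single arrays. This probe set carries the Affymetrix suffix _s_at and the other _a_at, and neither suffix marks probes for a single transcript. The other read 3681 and 2019 in MCK-PPARb muscle, against 2487 and 1197 in NTG muscle, again overlapping (log2 0.66 ± 0.41, adjusted p = 0.636). Its range was 0.13 to 1.19 when 1 array was left out.

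Slc2a4 encodes GLUT4, the transporter that insulin and exercise bring to the fibre surface. Its representative probe set read 20029 and 23430.3 in MCK-PPARb muscle, against 22821 and 25411 in NTG muscle. The groups overlapped, differing by -0.15 ± 0.18 on the log2 scale (SE, n = 2 per group, limma adjusted p = 0.833). The 95% interval of -0.58 to 0.28 leaves room for a modest difference in either direction. The value was -0.04 without MCK-PPARb replicate 1, -0.075 without NTG replicate 2, -0.23 without NTG replicate 1 and -0.27 without MCK-PPARb replicate 2. The second Slc2a4 probe set read 19825 and 13992 in MCK-PPARb muscle, inside the span of 30532 and 11683 in NTG muscle, with a log2 difference of -0.18 ± 0.42. That second value was 0.51 without NTG replicate 1 and -0.87 without NTG replicate 2.

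Slc2a1 encodes GLUT1, which in muscle is found on fibres at a low level and also in nerve sheaths and some endothelium. Its representative probe set read 729 and 776.5 in MCK-PPARb muscle, against 168 and 693 in NTG muscle. Both transgenic arrays were above both NTG arrays, but NTG replicate 2 was close to them and NTG replicate 1 far below. The log2 difference of 1.14 ± 0.63 did not pass (SE, n = 2 per group, 95% interval -0.33 to 2.62, adjusted p = 0.586, limma), and it was 0.12 without NTG replicate 1 and 2.16 without NTG replicate 2. With signals below 444 units raised to that level it was 0.44. A second probe set, at 358 and 486 in MCK-PPARb muscle, against 537 and 477 in NTG muscle, had a difference of the opposite sign, -0.28 ± 0.37, and the last lay below the filter at -0.072. The summed nerve markers were higher in MCK-PPARb muscle and the summed endothelial markers slightly lower, with single genes of both lists going the other way. Their part in the Slc2a1 signal was not tested. The difference of Slc2a4 minus that of Slc2a1 was -1.29, with a permutation p of 0.333 (exact, two-sided) and 0.5 adjusted over the 3 pairs, and it was -0.35 without NTG replicate 1 and -2.24 without NTG replicate 2.

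Hk2 encodes hexokinase 2, the main hexokinase of skeletal muscle. It read 9270.4 and 9147 in MCK-PPARb muscle, against 11027 and 11235 in NTG muscle. Both groups were tight, with SDs of 0.014 and 0.019 on the log2 scale, and did not overlap. The log2 difference was -0.27 ± 0.17 (SE, n = 2 per group, 95% interval -0.68 to 0.13), a ratio of 0.827, and it did not pass (adjusted p = 0.640, limma). Its SE is wide beside these SDs because limma partly pools the spread over genes of like brightness. Leaving out any 1 array left it between -0.29 and -0.26.

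Hk1, the hexokinase of most other tissues, read 1720.1 and 1612 in MCK-PPARb muscle, against 1539 and 1367 in NTG muscle. Here the transgenic arrays were above, by 0.20 ± 0.23 on the log2 scale (SE, n = 2 per group, 95% interval -0.35 to 0.75, adjusted p = 0.826, limma). It was 0.11 without NTG replicate 2, and 0.06 with the mean of its 2 probe sets. Its second probe set read 804 and 524 in MCK-PPARb muscle, against 902 and 521 in NTG muscle, which overlap (-0.079 ± 0.40, with -0.47 without NTG replicate 2 and 0.32 without NTG replicate 1). The difference of Hk2 minus that of Hk1 was -0.47. Both transgenic arrays had a lower log2 ratio of Hk2 to Hk1, 2.43 and 2.50, than the NTG arrays, 2.84 and 3.04, with the smallest p that the exact two-sided permutation test can give, 0.333, and 0.5 adjusted over the 3 pairs. With the mean of both Hk1 probe sets the contrast was -0.33 and the permutation p 0.667.

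Txnip, the brake on glucose uptake, was higher in MCK-PPARb muscle on both of its probe sets. The brighter one read 24047 and 30256 in MCK-PPARb muscle, against 17281 and 15290.1 in NTG muscle. The other read 16859 and 19695 in MCK-PPARb muscle, against 13255 and 10090.4 in NTG muscle. The groups overlapped on neither. The log2 differences were 0.73 ± 0.20 (SE, n = 2 per group, 95% interval 0.27 to 1.19, ratio 1.66) and 0.66 ± 0.21, with adjusted p of 0.220 and 0.302 and unadjusted p of 0.00674 and 0.0147 in limma. Of all genes tested, 8.13% had a larger difference in either direction. Leaving out 1 array at a time kept the brighter probe set between 0.56 and 0.90, none of them called. Both probe sets were designed on the same transcript record and count as 1 gene.

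**Figure D2:**
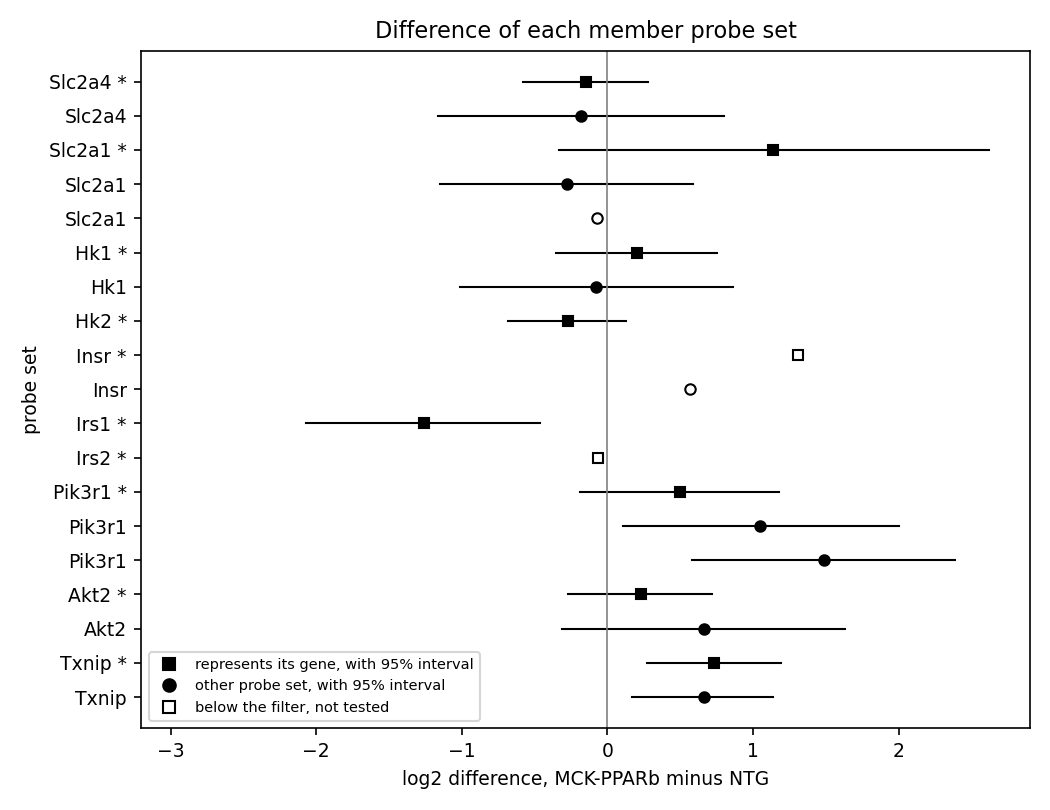
Log2 difference, MCK-PPARb minus NTG, of each of the 19 probe sets, with its 95% interval where it was tested, squares for representative probe sets and open symbols for those below the filter. The intervals of Irs1, of both Txnip probe sets and of 2 Pik3r1 probe sets do not reach 0, before any adjustment for the number of probe sets tested.

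**Figure D3:**
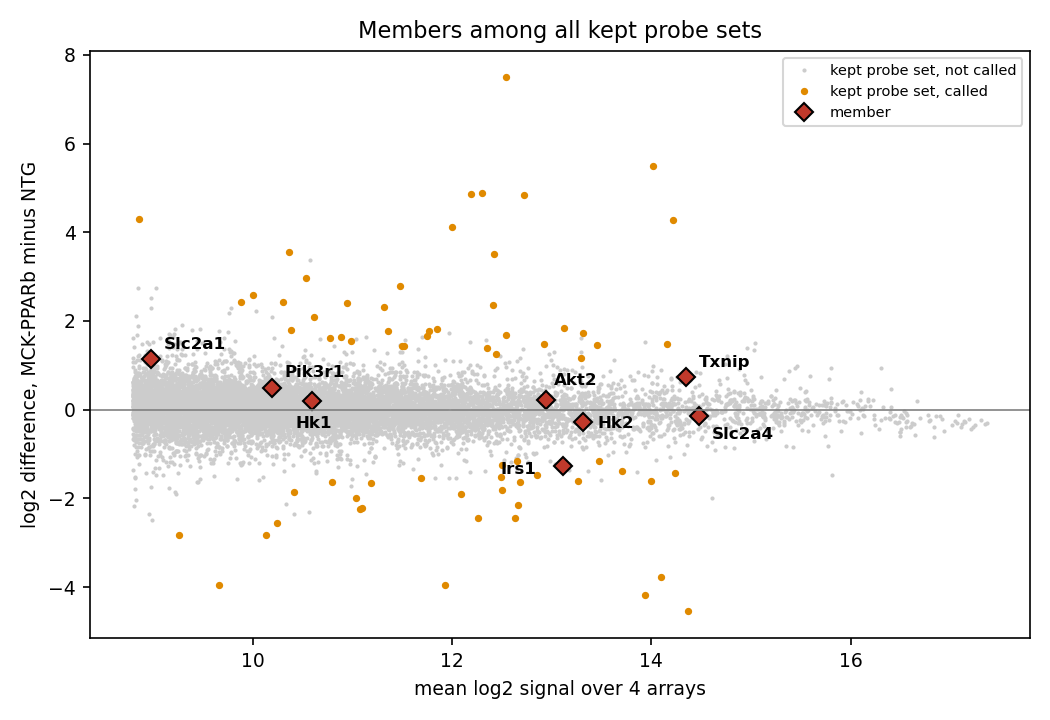
Log2 difference, MCK-PPARb minus NTG, against mean log2 signal over the 4 arrays for all 11313 kept probe sets, with the 68 called ones in orange and the representative probe sets of the 8 tested genes as red diamonds. None of the diamonds is among the called probe sets, and they run between Irs1, at -1.26 below most probe sets of its brightness, and Slc2a1, at 1.14 where dim probe sets spread widely.

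The rest of the pathway was followed with 8 lists of 103 further genes, of which 82 are on the array and 66 could be tested. These lists too were chosen with earlier results of these data known. Counted on the representative probe set of each gene, none of the 66 passed, against 0.731% of all genes, and their median log2 difference was 0.076. At an unadjusted p under 0.05 there were 11 (16.7%), against 10.9% of all genes. Both MCK-PPARb arrays were above both NTG arrays for 24 of the 66 and below them for 4, where 22.2% and 20.8% of all genes were.

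Genes that act at the receptor had the highest median of the 8 lists, 0.46 on the log2 scale. Of 10 tested, none passed. Both transgenic arrays were above both NTG arrays for 8, where 22.2% of all genes were, though among the 8 Ptpn1 differed by only 0.052. At an unadjusted p under 0.05 there were 4, against 10.9% of all genes. Socs3, a feedback inhibitor of cytokine and insulin signals, read 1916 and 769 in MCK-PPARb muscle, against 434 and 242 in NTG muscle (log2 1.91 ± 0.51, SE, n = 2 per group, adjusted p = 0.220, limma). The NTG signals lie below 444 units, so Socs3, counted in the 8 and the 4, passed the filter through its MCK-PPARb signals. Its size is uncertain. The other 2 Socs3 probe sets also read higher in both MCK-PPARb arrays, by 2.06 and 2.51. Without MCK-PPARb replicate 1, the brightest, the first stood at 1.25. Grb14, an adaptor that blocks the receptor kinase, read 3089 and 4024 in MCK-PPARb muscle, against 1949.5 and 2311 in NTG muscle (0.73 ± 0.23, adjusted p = 0.306). Grb10, a related inhibitory adaptor, differed by 0.56 ± 0.20 (adjusted p = 0.365). Grb2, the adaptor that links receptors to the Ras pathway, read 4102 and 3875 in MCK-PPARb muscle, against 2676 and 2346 in NTG muscle (0.67 ± 0.20, adjusted p = 0.279). Igf1r, the receptor closest to Insr, read 769.6 and 509 in MCK-PPARb muscle, against 845 and 515 in NTG muscle, and overlapped.

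Below the receptor, none of 11 regulators of phosphoinositide 3-kinase and Akt and none of 9 Akt effectors passed, and none had an unadjusted p under 0.05 on its representative probe set, where 10.9% of all genes did. Their median differences were -0.024 and 0.10. The members of smallest p were Phlpp1, a phosphatase of Akt (-0.39 ± 0.27, adjusted p = 0.670), Inpp5k, a lipid phosphatase (0.44 ± 0.33), and Mtor, the kinase of the mTOR complexes (0.23 ± 0.21). The other 2 Inpp5k probe sets had both MCK-PPARb arrays above both NTG arrays, by 0.47 ± 0.34 and 1.02 ± 0.43, the larger with an unadjusted p of 0.0497 and an adjusted p of 0.470, and so did the other Mtor probe set, by 0.57 ± 0.35. Among the effectors they were the forkhead gene Foxo3 (0.28 ± 0.27), the translation repressor gene Eif4ebp1 (-0.20 ± 0.20, with another probe set of opposite sign) and Tsc1, a partner of tuberin in restraining mTOR (0.22 ± 0.25). With 1 array left out these small values moved by over 1.5 times, to between 0.072 and 0.81 for Inpp5k, -0.61 and -0.17 for Phlpp1, 0.10 and 0.46 for Foxo3, -0.31 and -0.095 for Eif4ebp1 and 0.058 and 0.39 for Tsc1, the exception being Mtor, at 0.16 to 0.30. The differences of Akt1, the other measured isoform of the kinase, and of Pdpk1, the kinase that activates Akt, were -0.025 ± 0.26 and -0.024 ± 0.24.

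Among 15 genes of GLUT4 vesicle traffic, 3 (20%) had an unadjusted p under 0.05, against 10.9% of all genes, and none passed. Aspscr1, whose product TUG holds GLUT4 vesicles inside the cell until insulin acts, read 2807 and 1855 in MCK-PPARb muscle, against 1357 and 1165 in NTG muscle (0.86 ± 0.28, adjusted p = 0.314, limma), and stood at 0.56 without MCK-PPARb replicate 1. Sort1, the sorting receptor sortilin, differed by 0.56 ± 0.23 (adjusted p = 0.444), by 0.31 without NTG replicate 2, while its other 2 probe sets overlapped between groups. Rhoq, a small GTPase also called TC10, was the other way: 9238 and 6073 in MCK-PPARb muscle, against 10639 and 13076 in NTG muscle (-0.66 ± 0.25, adjusted p = 0.395). It stood at -0.35 without MCK-PPARb replicate 2 and -0.96 without MCK-PPARb replicate 1.

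Of the subunits and upstream kinases of AMPK, which drives insulin-independent uptake during exercise, 3 were tested and none passed. The value of Prkab1, a beta subunit, depended on the probe set: the representative read 667 and 709.8 in MCK-PPARb muscle, against 1179 and 909.7 in NTG muscle (-0.59 ± 0.29), and another read 1027 and 867 in MCK-PPARb muscle, against 108 and 444 in NTG muscle (2.11, adjusted p = 0.280, limma). On their representative probe sets, Prkag1 (0.18 ± 0.21) and Stk11, the upstream kinase LKB1 (-0.041 ± 0.27), differed by less than their errors. With 1 array left out they ran from 0.063 to 0.30 and from -0.37 to 0.29. Another Prkag1 probe set overlapped between groups (-0.064 ± 0.34). Another Stk11 probe set, below the filter, had both MCK-PPARb arrays below both NTG arrays (-1.46). Of the other hexose transporters and hexokinases, 2 were tested: Slc2a3, the neuronal-type transporter GLUT3 (0.95 ± 0.44, adjusted p = 0.506), and Slc2a8 (-0.76 ± 0.48, adjusted p = 0.646). Both rest on single arrays: Slc2a3 stood at 0.51 without MCK-PPARb replicate 1 and 0.59 without NTG replicate 2, and Slc2a8 at -0.064 without MCK-PPARb replicate 2, -0.41 without NTG replicate 1 and -1.45 without MCK-PPARb replicate 1.

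Of 7 relatives and regulators of Txnip, none passed. Mlxip, which encodes MondoA, had the lowest adjusted p among representative probe sets of pathway genes, 0.198 in limma, while a further Socs3 probe set, the one at 2.51, had 0.132. It read 5970.3 and 5438 in MCK-PPARb muscle, against 2793 and 3659 in NTG muscle, with both transgenic arrays above (log2 0.83 ± 0.21, SE, n = 2 per group). MondoA is the factor known to bind the paired CACGAG element printed for Txnip. Any part of Mlxip in the Txnip difference was not tested. Mlxipl, its relative ChREBP, read 2705 and 2839 in MCK-PPARb muscle, against 3290 and 3387 in NTG muscle (-0.27 ± 0.20, adjusted p = 0.696), and Arrdc4, the closest relative of Txnip and another MondoA target, read 894 and 599.9 in MCK-PPARb muscle, against 1111 and 507 in NTG muscle (-0.036 ± 0.44). Itch, a ubiquitin ligase that targets TXNIP protein, differed by 0.86 ± 0.30 (adjusted p = 0.362).

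Of 9 regulators of Slc2a4 transcription none passed. Mef2d, a myocyte enhancer factor, read 14256 and 11261 in MCK-PPARb muscle, against 8867 and 6816 in NTG muscle (0.70 ± 0.22, adjusted p = 0.288, limma), while its other probe set overlapped (0.048). Ppara, the PPAR receptor relative of Ppard, read 1327 and 1244 in MCK-PPARb muscle, against 925 and 462 in NTG muscle (0.98 ± 0.38, adjusted p = 0.411), and stood at 0.47 without NTG replicate 2 and 1.48 without NTG replicate 1. Ppargc1b, a coactivator, differed by 0.35 ± 0.20.

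**Figure D4:**
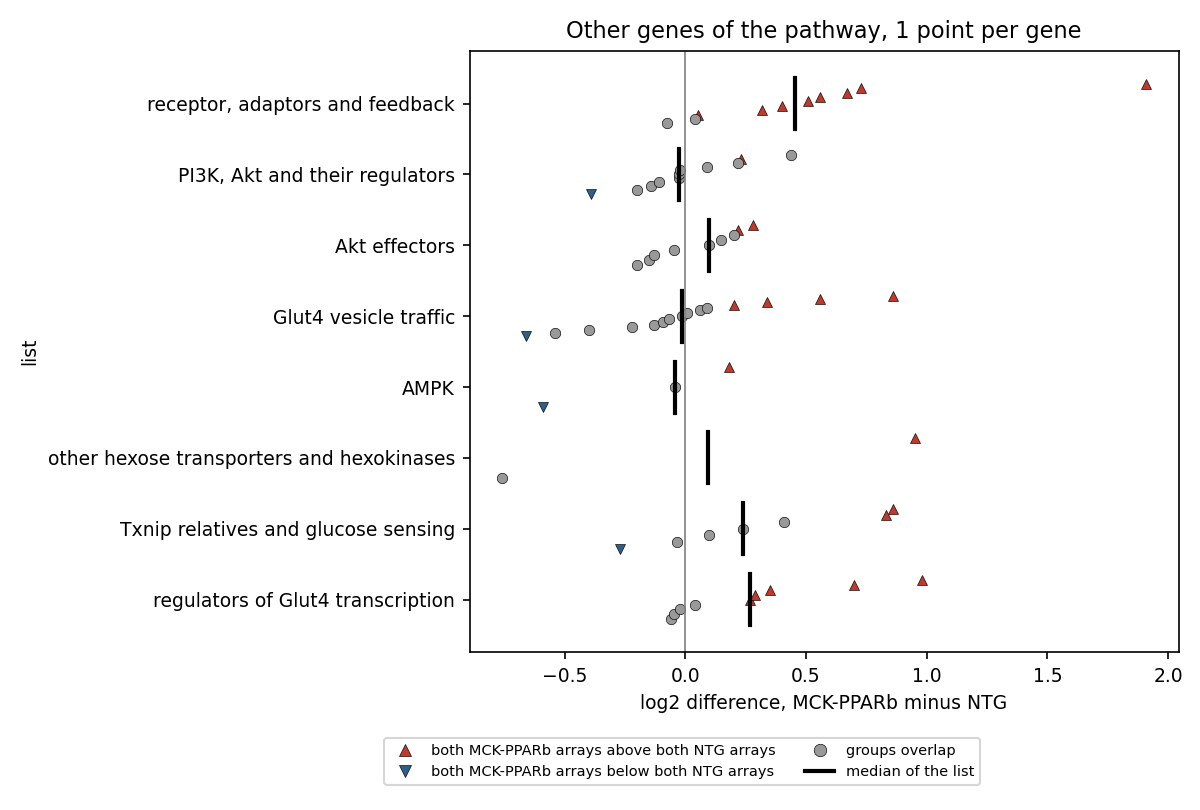
Log2 difference, MCK-PPARb minus NTG, of each of the 66 tested pathway genes in 8 lists, with red triangles where both MCK-PPARb arrays were above both NTG arrays, blue triangles where both were below, grey circles where the groups overlapped and a bar at the median of each list. The list of receptor, adaptor and feedback genes lies mostly right of 0, with a median of 0.46 and Socs3 farthest out at 1.91, while the lists of Akt regulators and vesicle traffic lie around 0.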

How the data were processed

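Gastrocnemius RNA of 2 MCK-PPARb and 2 NTG mice was labelled as biotinylated cRNA for Affymetrix arrays, per the labels' protocols. The deposited values are 1 linear signal intensity per probe set and array. The submitters' processing notes name MAS5 and GCOS, without versions. Of 22690 probe sets, 64 were controls and not used. The platform annotation gives 1 symbol to 20380 of the remaining 22626, several to 691 and none to 1555. Symbols were updated by gene number for 20351, with the RefSeq table of GRCm38.p6. A probe set that lists Hk1 beside other genes was not used.

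The log2 of each signal was taken as it stands. Probe sets whose mean log2 signal over the 4 arrays exceeded the median of all were kept (11313 probe sets, 6841 genes). MCK-PPARb and NTG arrays were compared in limma 3.58.1 (R 4.3.3) by lmFit and eBayes with an intensity trend, and p-values were adjusted by Benjamini-Hochberg over all kept probe sets, with 5.38 prior and 2 residual degrees of freedom. The fit was tested on simulated data. The number of arrays limits the precision. Intervals are not adjusted for multiple tests.

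The members and lists were chosen with earlier results of these data known. Always named were Ppard, the 10 genes and all their probe sets, any called pathway gene, and up to 3 genes of smallest p in each pathway list. Grb10, Igf1r, Akt1, Pdpk1, Arrdc4 and the other probe sets of pathway genes were chosen for the text with their values known. Fibroblast, macrophage and red blood cell markers were also measured (6, 6 and 3 genes, with Col1a2, Csf1r and Alas2 the brightest), and none was called. Their summed signals in MCK-PPARb and NTG muscle were 240405 to 291070 and 258367 to 302480, 8072 to 8198 and 7193 to 7870, and 1060 to 1325 and 978 to 1300.

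Alternatives tried were median centring, quantile normalization, 100 units added before the log, the filter dropped or set at the 75th percentile, signals raised to the filter level, eBayes without trend or robust, a replicate block, leaving out each array, the mean of a gene's kept probe sets, probe sets without the suffixes _s_at and _x_at, and an adjusted p under 0.1.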

Additional observations from a re-analysis of the deposited data

How the results depend on the processing

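Of the 10 genes, none passed in 14 of 16 alternatives, and Irs1 alone did in the other 2, without NTG replicate 1 (-1.82, adjusted p = 0.00529) and with the replicate block (adjusted p = 0.00494), so that leaving out 1 array gave 0 to 1 called members. The 8 tested genes kept their direction in every alternative that measured them. The replicate numbers are shared by the groups, but nothing in the labels makes them pairs, and deviations of same-numbered arrays correlated at 0.276 over the kept probe sets. With the replicate block, 377 probe sets, 218 genes, 1 member and 2 pathway genes, Socs3 (1.91, adjusted p = 0.00489) and Mlxip (0.83, adjusted p = 0.0498), were called. No pathway gene was called in the other 15 alternatives.

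Ppard passed in all alternatives, with differences of 5.30 to 5.68. The main counts of 68 probe sets and 50 genes became 21 and 14 without the intensity trend and 150 and 102 at an adjusted p under 0.1. Median centring gave 116 probe sets. Leaving out 1 array gave 36 to 159 probe sets and 26 to 105 genes. The median difference of the tested members, 0.21, was 0.11 with median centring, which moved all kept probe sets by -0.11, 0.023 with the filter at the 75th percentile, where fewer members were tested, 0.35 without the suffixes _s_at and _x_at, and 0.067 to 0.29 with 1 array left out. Irs1 minus Irs2 was -1.20 and ran from -3.42 to 1.02 with 1 array left out, the reversal being without NTG replicate 2. The other 2 paralogue contrasts kept their direction, with Slc2a4 minus Slc2a1 at -0.59 when signals were raised to the filter level and from -2.24 to -0.35 with 1 array left out. Median centring brought Akt2 to 0.12, Hk1 to 0.093 and Slc2a4 to -0.26. The mean of kept probe sets gave no Irs1 minus Irs2 value, since Irs2 lies below the filter. Signals near or below 444 units limit Insr, Irs2, Slc2a1 and the dimmer Pik3r1 probe sets.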
